A study of Mus musculus with 23 samples.

Results

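The data describe the differentiation of control cells: mouse oligodendrocyte progenitor cells (OPCs) that carried a guide with no target, kept for 60 hours either in OPC growth medium or in a medium that permits differentiation. Members were chosen by their labels, as the libraries of the non-targeting guide (NTC) in the count table of each stage. There were 3 libraries in OPC medium and 3 in permissive medium, 6 of the 23 libraries and 2 of the 8 groups in the series. The rest of the series holds the same cells with guides against Sox6, and OPCs and O1-positive oligodendrocytes purified on magnetic beads. The labels call the cells in permissive medium oligodendrocytes (OLs), a name used below for the culture as a whole, which was not sorted.

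The OPCs had been made from mouse epiblast stem cells. The labels name the lines EpiSC5 and 129O1, of the strains 129SvEv and 129S1/SvImJ, and the line behind each control library was not used here. The starting progenitors had been purified by flow cytometry on CD140a and NG2 and then expanded, and they received a lentiviral CRISPRv2 vector with a guide from the Brie library. Both stages therefore carried Cas9, the vector and the guide, and both had passed puromycin at 500 ng/mL for 96 hours. The guide is printed because it is shared by all 6 libraries, and it matched none of the promoter windows used below (0 exact matches on either strand).
Non-targeting guide: aagcctacttcaccggtcgg
OPC medium held the mitogens bFGF and PDGFA at 20 ng/mL each. Permissive medium had neither and held noggin and IGF-1 at 100 ng/mL each, cAMP at 10 µM and NT3 at 10 ng/mL, without thyroid hormone (T3). Stage, medium and deposited table coincide, so a difference between tables cannot be told apart from differentiation.

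Oligodendrocyte progenitors are dividing glial cells that respond to PDGF through the receptor encoded by Pdgfra. When mitogens are withdrawn they leave the cell cycle, pass through a committed premyelinating state marked by Gpr17 and Bcas1, and then switch on the genes of compact myelin under factors such as SOX10 and MYRF. BMP and Notch signals hold progenitors back, and thyroid hormone promotes their maturation.

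The OPC libraries held 13967438 to 16029603 estimated counts each and the OL libraries 13507407 to 16788455. Levels are given as CPM, counts scaled to a common library total, with the standard deviation (SD) over 3 libraries. Log2 changes are OL minus OPC, with a standard error (SE), and the p-values are from edgeR's quasi-likelihood test, adjusted by Benjamini-Hochberg over the whole table. A gene is said to have risen or fallen where that adjusted p was under 0.05. No label states that the 3 libraries of a stage were separate cultures; a p-value then reflects only how these libraries scatter, which may be technical. Libraries of a stage correlated at 0.968 or above in log2 CPM, and libraries of different stages at 0.913 or below. The first principal component separated the stages (68.5% of the variance), and the second (10.04%) spread OPC libraries A and C to 36.54 and -40.03. The log2 ratio of a library to its stage correlated with transcript length (Spearman rho) at -0.265 in OPC library A and at 0.259 in OPC library C, against -0.0605 to 0.0904 in the other libraries. With a transcript length offset 5966 genes were called (2846 higher, 3120 lower) in place of 6908.

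Among 12868 genes tested, 3447 rose (26.8%) and 3461 fell (26.9%), 53.7% in all, with a median log2 change of 0.02. At least 2-fold changes numbered 1470 rises (11.4%) and 1019 falls (7.92%), and at least 8-fold changes 196 and 73. The 15 genes named for the largest rises included the myelin genes Mag and Mbp, and the matrix gene Tnc came first of the 15 named for the largest falls. All 3 libraries of 1 stage lay beyond the other 3 for 4097 genes higher in OLs (31.8%) and 3954 lower (30.7%). These shares are the background for every count of list members below.

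**Figure D1:**
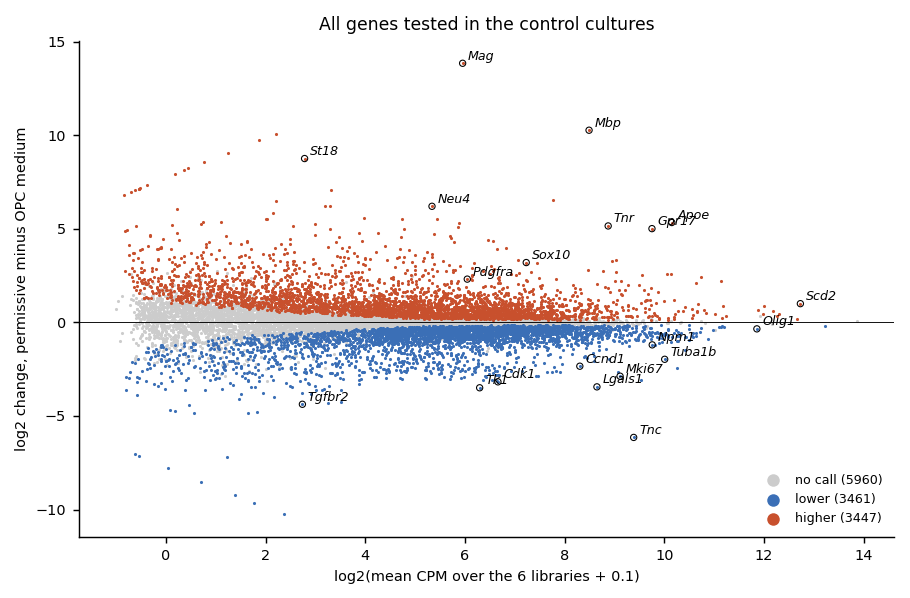
Log2 change from OPC to OL cultures (vertical axis) against the log2 of the mean CPM over the 6 libraries plus 0.1 (horizontal axis) for the 12868 genes tested. Red points are the 3447 rises, blue points the 3461 falls and grey points have no call. The fitted value drawn for Mag, whose OPC libraries are at 0, depends on the prior count and is not a measured fold.

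The cultures carried the markers of the oligodendrocyte lineage in both media. Olig1 encodes a lineage transcription factor. By TPM, a measure per transcript length, it ranked in the 10 highest genes of each stage, leaving out mitochondrial, ribosomal protein and predicted genes. It read 4025, 4276 and 4128 CPM in OPCs and 3141, 3306 and 3356 CPM in OLs. Olig2 read 1536, 1658 and 1619.5 and 1236, 1278 and 1302 CPM. Both were lower in each OL library than in each OPC library, by a small amount (log2 -0.34 and -0.34; edgeR adjusted p = 0.000556 and 0.00072). Sox10, whose product activates myelin genes, read 24.3, 32.9 and 30.8 CPM in OPCs and 271, 261 and 279 CPM in OLs, a 9.21-fold rise (log2 3.203, SE 0.11, edgeR adjusted p = 5.32e-07). The OPC markers Ptprz1 and Cspg4 stood at 4255 ± 450.2 and 302 ± 49.8 CPM in OPCs (SD, n = 3).

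Genes of myelin rose together but to unequal levels. Mbp, which encodes myelin basic protein (chromosome 18, 82475146 to 82585637, GRCm38), read 0.357, 0.754 and 0.574 CPM in OPCs and 663, 739 and 752 CPM in OLs. It went from close to the detection limit to a high level in each library, 1242-fold higher (log2 10.28, SE 0.14, edgeR adjusted p = 3.61e-08). Mag, an adhesion molecule of the innermost myelin layer (chr7:30899176-30914873), was listed at 0 in all 3 OPC libraries and at 116, 124 and 131 CPM in OLs. Against a floor of 3 counts per library that is at least 601-fold higher. Fa2h, whose enzyme makes the hydroxylated fatty acids of myelin lipids, rose from 1.08 ± 0.757 to 51.9 ± 2.48 CPM, and Myrf, the transcription factor needed for myelin genes, from 1.33 ± 0.417 to 36.6 ± 2.79 CPM (SD, n = 3).

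Of 24 myelin and mature oligodendrocyte genes, 15 passed the filter on low counts. Of these 13 rose and none fell by edgeR, at a median log2 change of 3.09 against 0.02 over all genes; members that passed only through the OL libraries had to be higher there. The summed level of the list went from between 212.5 and 246.6 CPM in OPCs to between 2313 and 2502 CPM in OLs. The late gene Mobp read 0.214, 0 and 0.215 CPM in OPCs and 1.01, 1.54 and 1.83 CPM in OLs, a rise to a level that remained low (edgeR adjusted p = 0.00666). Mog, a protein of the outer myelin surface, and Mal were listed at 0 in all 6 libraries. In these tables some genes that every cell uses are also listed near 0, such as Pgk1 at 0.4142 CPM or less, so a low listing does not show that a gene is silent.

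Markers of the committed stage rose in part. Gpr17 (chromosome 18, 31942997 to 31949636), the receptor that marks it, read 39.5, 60.2 and 55.1 CPM in OPCs and 1717, 1674 and 1623 CPM in OLs. The OL libraries stood 32.4-fold above the OPC libraries and varied little (log2 5.02, SE 0.15, edgeR adjusted p = 3.48e-07). Neu4, which encodes a sialidase (chr1:94020451-94028334), read 1.07, 1.51 and 0.574 CPM and then 79.1, 84.2 and 75.7 CPM, with no overlap (log2 6.21, SE 0.20, edgeR adjusted p = 4.62e-07). Bcas1, another marker of this stage, rose from 90.7 ± 3.28 to 893 ± 13.7 CPM, and Sirt2, a deacetylase of tubulin and histones, from 111 ± 5.72 to 758 ± 15.4 CPM. Of 14 newly formed oligodendrocyte genes tested, 8 rose and 2 fell by edgeR (median log2 0.96; 2.12 without OPC library B and 1.52 without OPC library C). The genes that fell were Cemip2, a cell-surface hyaluronidase (122 ± 6.299 to 61.5 ± 3.53 CPM), and the small GTPase gene Rras2 (32.1 ± 1.24 to 25.4 ± 1.003 CPM). Fyn, a kinase that acts in process outgrowth, rose by 0.13 on the log2 scale (edgeR adjusted p = 0.0316), from a level that was already 1028 ± 12.3 CPM in OPCs; the call was lost without any 1 of the 6 libraries.

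**Figure D2:**
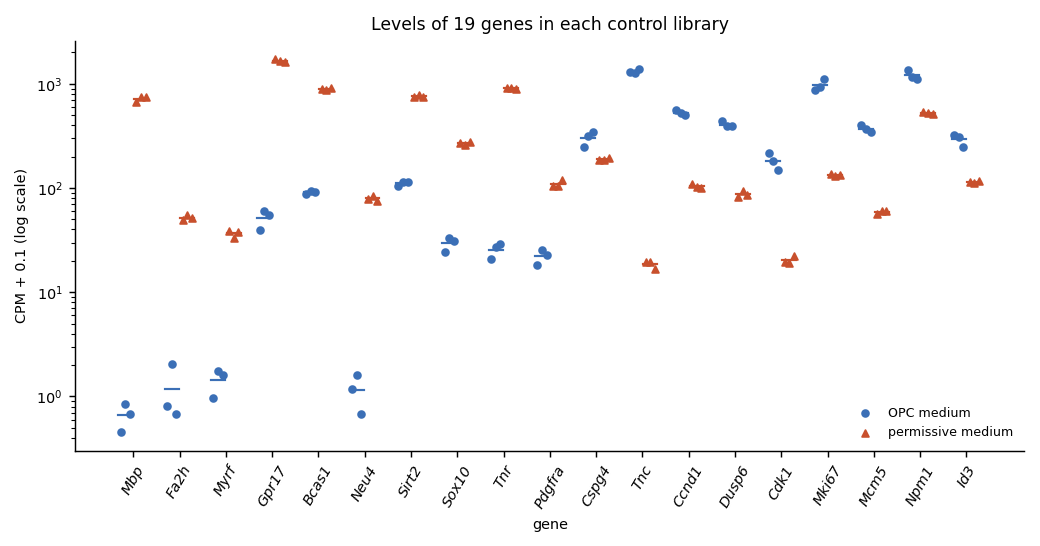
CPM plus 0.1 on a log axis for 19 genes, with each control library as a point (blue circles, OPC medium; red triangles, permissive medium) and the mean of a stage as a bar. For Mbp the OL points sit between 663 and 752 CPM, and for Cdk1 between 18.95 and 22.4 CPM; the stages do not overlap for any of the 19 genes.

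The libraries of sorted cells give a reference for how far such a culture had come, although their units, cells and media differ, so values are set side by side without a comparison. On the TPM scale Gpr17 stood at 10.7 and 374 in the OPC and OL cultures and at 11.5 ± 6.59 and 847 ± 29.3 in sorted OPCs and sorted OLs (SD, n = 3). Mbp stood at 0.485 and 511 TPM in the cultures and at 0.282 ± 0.214 and 16288 ± 325 TPM in the sorted cells. Mobp was at 0.0547 and 1.404 TPM in the cultures, and at 0.00791 ± 0.0137 and 293 ± 52.6 TPM in the sorted cells.

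Transcription factors that drive differentiation mostly rose. Of 17 tested, 13 rose and 3 fell by edgeR, with a median log2 change of 0.87. St18, a zinc finger factor, had counts in 1 OPC library and read 0, 0 and 0.0717 CPM in OPCs and 12.7, 14.01 and 13.9 CPM in OLs (edgeR adjusted p = 4.25e-06). The 3 that fell, Olig1, Olig2 and Yy1 (205 ± 4.404 to 170.1 ± 6.19 CPM), did so by at most 0.34 on the log2 scale. Among 19 tested factors that hold progenitors back, 7 rose and 9 fell by edgeR (median -0.31).

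The Id genes, which encode inhibitors of basic helix-loop-helix factors, moved in both directions. Id3 read 323, 311 and 249 CPM in OPCs and 114, 112 and 117 CPM in OLs, and Id1 read 16.4, 14.4 and 13.6 and 6.21, 6.94 and 5.49 CPM. Id4 read 1.498, 2.64 and 3.59 CPM in OPCs and 37.2, 33.4 and 33.1 CPM in OLs, and Id2 read 34.2, 44.1 and 39.7 and 93.9, 96.4 and 84.9 CPM. Every OL library was below every OPC library for Id1 and Id3 and above them for Id2 and Id4. The edgeR log2 changes were -1.25, 1.22, -1.36 and 3.74 for Id1, Id2, Id3 and Id4, with adjusted p = 0.000394, 3.75e-05, 1.81e-05 and 1.5e-05. The immediate early gene Egr1 fell from 31.2 ± 2.54 to 10.7 ± 0.275 CPM. Hes1 and Hes5, targets of Notch, moved apart. Hes1 fell from 46.1 ± 0.462 to 26.8 ± 0.831 CPM, and Hes5 rose from 34.5 ± 5.97 to 135 ± 8.65 CPM (31.77% of its exon bases are shared with a gene on the other strand, whose reads this kit cannot separate).

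Genes used as progenitor markers did not fall as a group. Of 21 tested, 14 rose and 5 fell by edgeR, at a median log2 change of 0.61. Pdgfra (chr5:75152292-75198215), the receptor for the PDGFA that only OPC medium held, read 17.98, 25.5 and 22.5 CPM in OPCs and 106, 106 and 119 CPM in OLs. All 3 OL libraries were higher, by 4.99-fold (log2 2.32, SE 0.12, edgeR adjusted p = 4.15e-06). Pcdh15, a protocadherin gene, rose from 10.8 ± 1.34 to 91.95 ± 1.08 CPM, and Matn4, a matrilin gene, from 1.37 ± 0.533 to 21.7 ± 1.67 CPM. Lhfpl3 rose by 1.38 and Ptprz1 by 0.45 on the log2 scale. Cspg4, which encodes NG2, fell from 302 ± 49.8 to 188 ± 4.62 CPM (log2 -0.68, edgeR adjusted p = 0.00148). Sulf2, an enzyme that trims heparan sulfate, fell from 934 ± 55.9 to 479 ± 3.94 CPM, and Sapcd2 from 44.1 ± 4.15 to 19.2 ± 1.73 CPM. Without OL library B, 3 members fell in place of 5.

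The tenascins, large glycoproteins of the brain matrix, exchanged places. Tnc (chr4:63959785-64047015) read 1286, 1265 and 1402 CPM in OPCs and 19.4, 19.5 and 16.8 CPM in OLs. Tnr (chr1:159523769-159931729) read 20.9, 26.8 and 28.7 CPM in OPCs and 918, 917 and 901 CPM in OLs. Each gene was high in all 3 libraries of 1 stage and low in all 3 of the other, with log2 changes of -6.15 (SE 0.085) for Tnc and 5.16 (SE 0.11) for Tnr; the edgeR adjusted p was 3.61e-08 and 1.1e-07. Per transcript length, Tnr made up 0.923% to 1.57% of the TPM of both genes in OPC libraries and 97.2% to 97.5% in OL libraries. Tnc had the largest fall that the naming rule returned over the whole table.

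Genes of cell division fell in nearly every case measured. Of 40 mitosis genes 37 passed the filter on low counts, and all 37 fell by edgeR, with a median log2 change of -2.54, and of 36 DNA replication genes 34 fell and none rose (median -2.29). In bulk RNA, fewer dividing cells and less of each RNA per cell cannot be told apart. Cdk1, the kinase that drives entry into mitosis (chr10:69335146-69352938), read 217, 180.4 and 149 CPM in OPCs and 19.2, 18.95 and 22.4 CPM in OLs. Each OL library held about the same remainder, 20.2 ± 1.91 CPM on average (log2 -3.17, SE 0.15, edgeR adjusted p = 2.25e-06). Plk1, another mitotic kinase, fell from 168 ± 17.7 to 19.7 ± 2.79 CPM, and Aurkb, the kinase of the chromosomal passenger complex, from 107 ± 14.8 to 13.7 ± 1.78 CPM. Tk1, a thymidine kinase of S phase, read 167, 141 and 125 CPM in OPCs and 13.7, 12.8 and 11.9 CPM in OLs, and Mcm10, a factor of origin firing, fell from 92.6 ± 9.21 to 11.4 ± 1.17 CPM. The largest value of the replication list apart from Tk1 was that of the ligase gene Lig1 (log2 -3.37, SE 0.88). Lig1 was uneven between libraries, at 4.92, 16.7 and 30.99 CPM in OPCs and 1.24, 3.53 and 0.2195 CPM in OLs. The summed level of the mitosis list went from 5555 to 6183 CPM in OPC libraries to 922.7 to 947 CPM in OL libraries, and that of the replication list from 3480 to 4057 CPM to 800.7 to 821.1 CPM. The proliferation marker Mki67 read 879, 925 and 1114 CPM in OPCs and 135, 129 and 134 CPM in OLs, so the OL cultures retained cell cycle RNA.

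Control of the G1 phase fell less evenly. Of 22 genes tested 15 fell and 5 rose by edgeR (median log2 -1.18). Ccnd1, which encodes the mitogen-induced cyclin D1, read 566, 519.6 and 497 CPM in OPCs and 109, 103 and 101 CPM in OLs (log2 -2.34, SE 0.065, edgeR adjusted p = 2.73e-07; 23.36% of its exon bases overlap a gene on the other strand). E2f2 and E2f8, of the E2F family that controls S phase genes, fell from 47.5 ± 2.74 to 5.94 ± 0.425 CPM and from 37.3 ± 5.597 to 6.400000000 ± 2.099 CPM. Rb1, which encodes the retinoblastoma protein, rose from 88.2 ± 4.78 to 144 ± 6.15 CPM. Among inhibitors of cyclin-dependent kinases, Cdkn2b rose from 2.69 ± 0.186 to 7.74 ± 0.591 CPM and Cdkn1c from 14.7 ± 1.26 to 21.8 ± 0.813 CPM (30.65% of its exon bases overlap a gene on the other strand). Cdkn1a, which encodes p21, read 162, 151 and 149 CPM in OPCs and 58.9, 55.4 and 60.1 CPM in OLs, lower in every OL library (log2 -1.41, edgeR adjusted p = 1.54e-06). In the sorted cells Cdkn1a stood at 94.2 ± 24.1 TPM in OPCs and 185 ± 15.7 TPM in OLs, in the other direction.

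Promoters of these genes are shown because members of both lists fell together. Windows of 250 bases before the start of a gene came from RefSeq (GRCm38.p6), and were found for 32 of 40 mitosis genes and 31 of 37 replication genes. They were searched on both strands for CCAAT, for TTTGAA (the cell cycle homology region, CHR) and for words bound by E2F factors (TTCCCGC, or in other forms TTGGCGC, or else TTCGCGC, or lastly TTGCCGC), which can overlap on opposite strands. Over all 32851 windows the shares were 33.8% for CCAAT, 16.0% for TTTGAA and 7.89% for an E2F word, and over the 12592 windows of genes tested 35.6%, 10.6% and 13.6%. Among genes that fell they were 36.3%, 10.9% and 18.8%, and among genes that rose 35.6%, 9.89% and 10.3%. Of 34 mitosis windows 24 held CCAAT (70.6%), 12 held TTTGAA (35.3%) and 10 held both (29.4%, against 4.06% of windows of genes tested and 5.55% of all windows). Of 36 replication windows 17 held an E2F word (47.2%) and 21 held CCAAT (58.3%). CCAAT was also in 16 of 22 windows of cholesterol synthesis genes (72.7%), a list with calls in both directions. A match is a description of letters and not a bound site.

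The mitosis genes shown are Cdk1, Plk1 and Mki67, those with the largest falls among genes that met 4 conditions. These were at least 5 CPM in the higher stage, a single window, and no more than a short stretch of coding-gene exon in it. The last was a position on a chromosome other than 18. In these lines CCAAT and TTTGAA, on either strand, are in capitals.
Cdk1 (chr10:69352913-69353162, minus strand): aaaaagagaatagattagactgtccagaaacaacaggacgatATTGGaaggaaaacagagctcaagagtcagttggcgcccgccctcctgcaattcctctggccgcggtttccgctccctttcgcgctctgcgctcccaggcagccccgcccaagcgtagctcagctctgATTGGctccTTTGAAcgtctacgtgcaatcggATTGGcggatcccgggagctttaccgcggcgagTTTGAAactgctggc
Plk1 (chr7:122159185-122159434, plus strand): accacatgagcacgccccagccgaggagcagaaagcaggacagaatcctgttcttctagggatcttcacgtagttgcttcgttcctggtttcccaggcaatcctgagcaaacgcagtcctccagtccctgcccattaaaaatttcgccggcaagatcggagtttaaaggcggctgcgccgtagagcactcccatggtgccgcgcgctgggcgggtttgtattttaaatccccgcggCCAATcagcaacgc
Mki67 (chr7:135716380-135716629, minus strand): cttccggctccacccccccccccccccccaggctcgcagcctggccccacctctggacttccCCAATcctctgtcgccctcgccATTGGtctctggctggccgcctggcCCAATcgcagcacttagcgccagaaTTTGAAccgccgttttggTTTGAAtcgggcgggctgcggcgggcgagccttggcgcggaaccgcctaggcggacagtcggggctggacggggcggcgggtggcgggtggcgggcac
Cdk1 and Mki67 each hold 3 CCAAT words and 2 TTTGAA words, and in Cdk1 a TTTGAA word starts 15 bases before the start of the gene. Plk1 holds 1 CCAAT word, 14 bases before the start, and none of the other word. The replication genes chosen in the same way among windows with an E2F word are Mcm5 and Mcm6, subunits of the replicative helicase, with the E2F words in capitals.
Mcm5 (chr8:75109259-75109508, plus strand): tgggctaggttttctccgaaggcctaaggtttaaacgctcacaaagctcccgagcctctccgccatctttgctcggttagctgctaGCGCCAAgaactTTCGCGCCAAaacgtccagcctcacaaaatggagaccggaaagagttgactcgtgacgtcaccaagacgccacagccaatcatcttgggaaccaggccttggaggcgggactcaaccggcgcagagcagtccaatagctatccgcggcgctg
Mcm6 (chr1:128359706-128359955, minus strand): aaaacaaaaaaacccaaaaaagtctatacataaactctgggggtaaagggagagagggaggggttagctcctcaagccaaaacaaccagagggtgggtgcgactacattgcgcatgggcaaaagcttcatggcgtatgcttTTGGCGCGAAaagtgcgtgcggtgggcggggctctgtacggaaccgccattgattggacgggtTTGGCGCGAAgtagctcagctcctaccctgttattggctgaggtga
Mcm5 holds 3 such words within one short stretch and Mcm6 holds 4, as overlapping pairs at 2 places. Mcm5 fell from 372 ± 28.7 to 58.8 ± 2.51 CPM and Mcm6 from 12.5 ± 4.36 to 2.15 ± 0.421 CPM.

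Feedback genes of the ERK pathway, which mitogen receptors induce, were mostly lower in the medium without FGF and PDGF. Of 18 tested, 12 fell and 2 rose by edgeR (median log2 -0.73). The phosphatase gene Dusp6 read 436, 389.9 and 390.04 CPM in OPCs and 82.5, 92.96 and 86.05 CPM in OLs (log2 -2.22, SE 0.071, edgeR adjusted p = 4.35e-07). The Sprouty genes Spry4 and Spry1, inhibitors of receptor signalling, fell from 162 ± 9.89 to 30.3 ± 1.39 CPM and from 269 ± 6.1997 to 61.99 ± 3.55 CPM; 24.43% of the exon bases of Spry1 overlap a gene on the other strand. The 3 OL libraries lay below all OPC libraries for each of these 3 genes. Etv1 rose from 121 ± 9.42 to 188 ± 1.68 CPM and Il17rd from 81.4 ± 13.9 to 108 ± 1.86 CPM; without any 1 OL library Il17rd was not called. Etv4, another ETS factor, read 217, 219.7 and 204 CPM in OPCs and 185, 204 and 207 CPM in OLs and did not pass the test (edgeR adjusted p = 0.184). In the sorted cells Etv4 was at 137 ± 25.1 TPM in OPCs and 2.403 ± 0.721 TPM in OLs.

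Among 21 growth factor receptors and ligands tested, 7 rose and 5 fell by edgeR (median log2 0.14; 0.057 without OL library C). Erbb4, a neuregulin receptor, rose from 75.1 ± 18.7 to 379 ± 16.95 CPM, while its partner receptor Erbb2 fell from 81.7 ± 1.65 to 50.6 ± 3.31 CPM. Igfbp3, which binds insulin-like growth factors, fell from 11.1 ± 0.643 to 3.18 ± 0.1398 CPM, and the docking protein gene Irs1 from 95.9 ± 13.5 to 58.5 ± 2.27 CPM (30.86% of its exon bases overlap a gene on the other strand). Fgf2, the gene of the factor supplied in OPC medium, rose from 2.29 ± 0.378 to 7.24 ± 1.26 CPM. Of 18 cAMP response genes 6 rose and 2 fell by edgeR, with 10 not called (median 0.11; 0.057 without OPC library A and 0.065 without OL library C). Without OPC library B, or without any 1 OL library, 1 of them fell. The adenylyl cyclase genes Adcy8 and Adcy5 rose from 16.4 ± 3.68 to 125 ± 1.61 CPM and from 10.7 ± 2.69 to 37.2 ± 2.36 CPM, and the clock gene Per1 from 3.38 ± 0.626 to 10.2 ± 5.096 CPM. Dusp1 fell from 14.4 ± 0.546 to 8.21 ± 0.163 CPM and Prkar1a, a regulatory subunit of protein kinase A, by 0.14 on the log2 scale.

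Signalling pathways that regulate differentiation had mixed calls. In the BMP and Id list 5 of 19 rose and 6 fell by edgeR, with a median log2 of -0.046 whose sign changed under 10 alternative settings, among them leaving out OL library C (0.042) or any 1 OPC library (0.12 to 0.16); without OL library B it was -0.029. The BMP inhibitor gene Nog rose from 3.12 ± 0.386 to 8.202 ± 1.13 CPM in the medium that also held noggin protein. Smad7, an inhibitor of the pathway inside the cell, rose from 3.29 ± 0.318 to 10.7 ± 1.55 CPM, and the decoy receptor gene Bambi fell from 10.8 ± 1.67 to 4.09 ± 0.236 CPM. In the Notch list 10 of 17 rose and 2 fell by edgeR (median 0.39; 0.26 without OPC library A; 6 rose without OL library C). The ligand gene Dll3 read 42.6, 44.2 and 43.8 CPM in OPCs and 112, 115 and 111 CPM in OLs (log2 1.37, edgeR adjusted p = 9.24e-07). The target gene Hey2 rose from 3.99 ± 0.525 to 18.9 ± 2.04 CPM, and Lfng, whose enzyme modifies Notch, fell from 298 ± 23.3 to 173 ± 13.1 CPM.

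In the Wnt list 5 of 18 rose and 6 fell by edgeR (median log2 -0.11; -0.21 without OL library C and -0.045 without OPC library C). Apcdd1 and Daam2 rose from 20.8 ± 1.197 to 120.3 ± 7.08 CPM and from 9.102 ± 1.77 to 54.5 ± 2.53 CPM. The receptor gene Fzd1 fell from 189 ± 8.27 to 69.2 ± 4.17 CPM, and the nuclear effector gene Tcf7 from 5.86 ± 0.791 to 0.867 ± 0.499 CPM. Rnf43 and Znrf3, ubiquitin ligases that remove Wnt receptors, moved apart, Rnf43 from 2.93 ± 0.619 to 12.7 ± 3.095 CPM and Znrf3 from 96.2 ± 12.9 to 57.6 ± 1.12 CPM. The medium held no thyroid hormone, and 3 of 11 genes of that pathway rose and 1 fell by edgeR (median 0.082; -0.039 with a transcript length offset, 0.47 without OL library A and 0.28 without OPC library B). The receptor genes Thra and Thrb rose from 17.4 ± 2.74 to 37.7 ± 3.93 CPM and from 2.93 ± 0.674 to 9.33 ± 1.06 CPM. The hormone-induced gene Klf9 read 77.5, 74.2 and 76.8 CPM in OPCs and 75.6, 78.1 and 80.5 CPM in OLs and did not pass the test (edgeR adjusted p = 0.625). In the sorted cells Klf9 stood at 9.44 ± 0.943 TPM in OPCs and 98.7 ± 2.897 TPM in OLs.

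**Figure D3:**
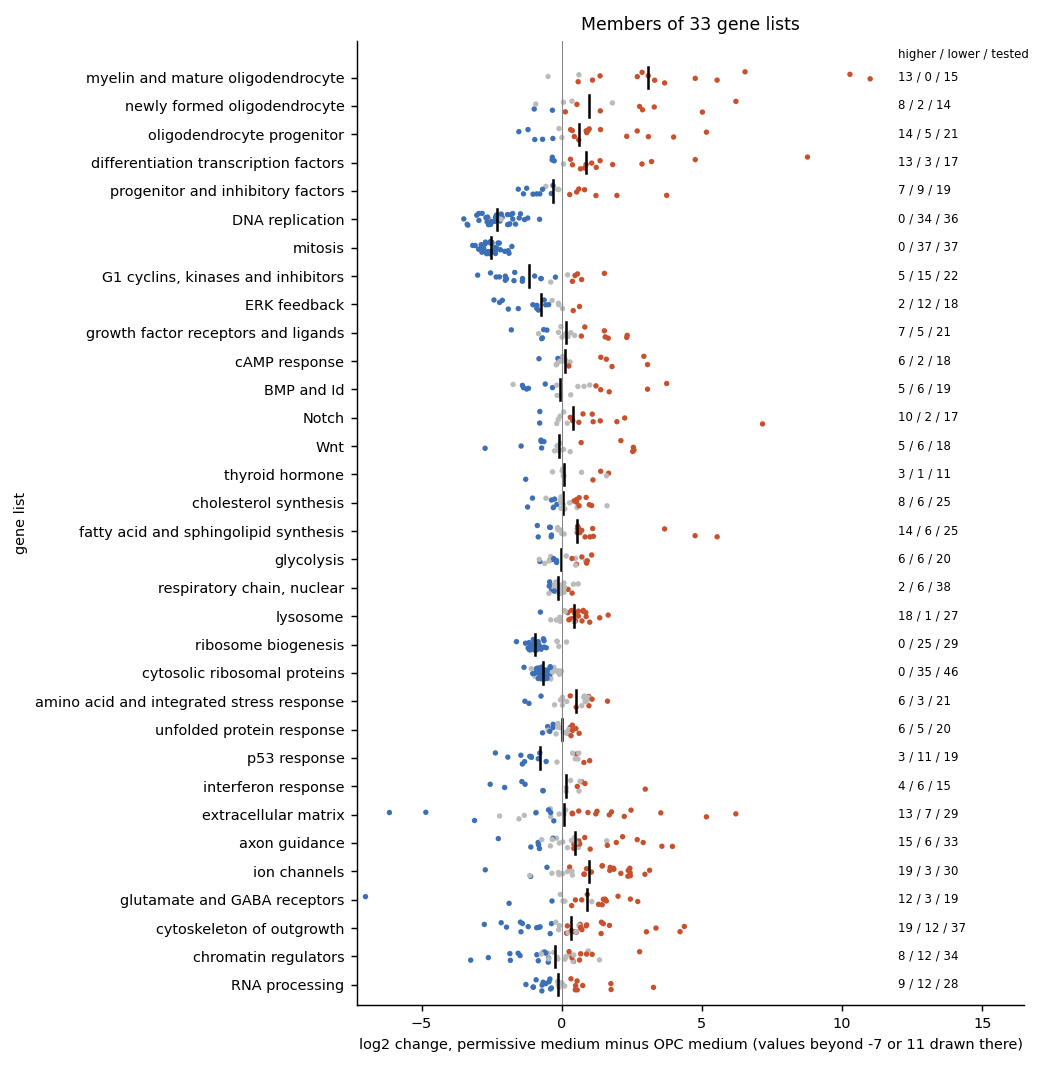
Log2 change from OPC to OL cultures (horizontal axis) of each tested member of 33 gene lists (vertical axis), red where it rose, blue where it fell and grey with no call; the black bar is the median, and the counts at the right are genes higher, lower and tested. The mitosis and replication lists lie to the left of 0 and the myelin list mostly to the right; values for genes at 0 in 1 stage, such as Mag, are fitted and not measured folds.

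Lipid genes rose in part. Of 25 fatty acid and sphingolipid genes tested, 14 rose and 6 fell by edgeR (median log2 0.56). Gal3st1, which makes the sulfatide of myelin, rose from 1.03 ± 0.534 to 27.9 ± 1.48 CPM, and the elongase gene Elovl7 from 5.85 ± 0.746 to 74.5 ± 2.15 CPM. The desaturase gene Scd2 read 4461, 4508 and 4564 CPM in OPCs and 9140.5, 9085 and 8941 CPM in OLs, a 2.01-fold rise in one of the most abundant RNAs. Acly, which supplies acetyl-CoA in the cytosol, fell from 277 ± 34.9 to 152 ± 21.998 CPM, Srebf1, a transcription factor of lipid synthesis, from 502 ± 19.6 to 372 ± 13.5 CPM, and the ceramide synthase gene Cers5 from 7.52 ± 1.59 to 4.19 ± 0.873 CPM. Of 25 cholesterol synthesis genes 8 rose and 6 fell by edgeR (median 0.053; -0.0033 without OPC library B, 0.11 without OPC library A, 0.14 without OL library A and 0.0044 without OL library B). Hmgcs1, at the entry of the pathway, rose from 1101 ± 127 to 2177 ± 34.1 CPM, Lss from 138 ± 8.82 to 289 ± 5.497 CPM and Mvd from 69.2 ± 10.8 to 127 ± 2.54 CPM. Scap and Stard4 fell, by log2 changes of -0.30 and -0.37.

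In the fit to all 6 libraries, neither list of energy metabolism genes was called much more often than all genes tested. Glycolysis calls were close to the shares over all genes tested in both directions. With all 6 libraries, respiratory chain calls were below those shares in both directions. Of 20 glycolysis genes 6 rose and 6 fell by edgeR (median log2 -0.013, with the other sign under 10 alternative settings). Each of the 6 libraries moved that median when left out, to between -0.20 without OPC library B and 0.33 without OPC library C. Aldoc and Pfkm rose from 588 ± 53.5 to 1231 ± 33.7 CPM and from 315 ± 11.8 to 582 ± 24.98 CPM, and Pdk1, which holds pyruvate back from the mitochondrion, from 23.9 ± 2.78 to 44.98 ± 1.903 CPM. Tpi1 fell from 296 ± 30.8 to 173 ± 8.57 CPM, with smaller falls for Pfkl (log2 -0.42) and Gpi1 (log2 -0.34). Of 38 nuclear genes of the respiratory chain 30 had no call, 2 rose and 6 fell by edgeR (median -0.12, above 0 under 2 alternatives). Without OPC library C 18 fell (median -0.21), and without OPC library A the median was -0.048. Rises numbered 1 without any 1 library other than OPC library A. Among them Atp5c1 and Cycs fell by 0.45 and 0.43 and Cyc1 by 0.36, and Ndufs1 and Sdhc rose by 0.37 and 0.23, on the log2 scale. Lysosome genes leaned upward, with 18 of 27 higher and 1 lower by edgeR (median 0.45; 2 lower without OL library C). The protease gene Ctsl rose from 49.2 ± 1.32 to 155 ± 2.62 CPM (26.85% of its exon bases overlap a gene on the other strand), Ppt1, a thioesterase gene, from 3.25 ± 0.783 to 8.31 ± 0.632 CPM, and Tfeb, the factor that induces lysosomal genes, from 10.9 ± 1.89 to 21.8 ± 2.25 CPM. The galactosidase gene Glb1 was the member that fell (10.3 ± 1.88 to 6.07 ± 0.338 CPM).

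Genes for making ribosomes were lower in OLs. Of 29 ribosome biogenesis genes tested 25 fell and none rose by edgeR (median log2 -0.96), and of 46 cytosolic ribosomal protein genes 35 fell and none rose (median -0.67). Npm1, a nucleolar chaperone, read 1343, 1166 and 1105 CPM in OPCs and 535, 523 and 518 CPM in OLs (log2 -1.198, edgeR adjusted p = 8.72e-06). Utp20, of the small subunit processome, fell from 145 ± 4.296 to 59.1 ± 3.19 CPM and Gar1, of box H/ACA particles, from 21.6 ± 4.46 to 7.04 ± 2.59 CPM. The ribosomal protein gene Rplp2 fell from 203 ± 25.6 to 103 ± 2.4002 CPM and Rps14 from 7.92 ± 0.552 to 3.87 ± 0.5897 CPM. The 46 genes summed to 27660, 24480 and 21080 CPM in OPC libraries A, B and C, and to 14660, 15660 and 15630 CPM in OLs. Rps14 is a small part of that sum, and as for Pgk1 its low listing may not show its level. Tested against a 1.5-fold change, 11 of the 46 ribosomal protein genes fell.

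Stress pathways did not move as blocks. In the list of amino acid and integrated stress response genes 6 of 21 rose and 3 fell by edgeR (median log2 0.51; 0.31 without OPC library A). The cystine transporter gene Slc7a11 rose from 22.9 ± 0.994 to 71.1 ± 7.46 CPM, Ddit4 from 85.9 ± 13.3 to 182 ± 16.02 CPM and Vldlr from 29.4 ± 2.11 to 57.6 ± 2.504 CPM. The mitochondrial folate enzymes Mthfd2 and Shmt2 fell from 75.1 ± 15.01 to 30.2 ± 3.63 CPM and from 255 ± 12.7 to 153 ± 1.28 CPM, and Cebpb from 11.7 ± 0.727 to 5.18 ± 0.861 CPM (20.74% of its exon bases overlap a gene on the other strand). Of 20 unfolded protein response genes 6 rose and 5 fell by edgeR (median 0.0036, of the other sign under 9 alternatives; 3 rose without OL library C). Without OPC library B, or without any 1 OL library, 3 fell. The chaperone gene Hspa5 fell from 1085 ± 115 to 765 ± 8.01 CPM, Pdia4 by 0.43 and Edem1 by 0.69 on the log2 scale. Sel1l, Dnajb9 and Sdf2l1 rose by 0.62, 0.50 and 0.38 on that scale.

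Targets of p53 fell more often than they rose, with 11 of 19 lower and 3 higher by edgeR (median log2 -0.78). Plk2, a kinase gene, read 199, 184 and 172 CPM in OPCs and 35.8, 37.4 and 34.5 CPM in OLs, with no overlap (log2 -2.37, edgeR adjusted p = 3.88e-07). Pidd1 fell from 10.9 ± 1.17 to 3.97 ± 1.17 CPM. Gadd45a, Btg2 and Mdm2 rose, from 8.75 ± 0.829 to 17.4 ± 0.999 CPM, from 128 ± 17.04 to 222 ± 3.84 CPM and from 8.29 ± 0.321 to 11.95 ± 1.55 CPM. Of 15 interferon response genes 4 rose and 6 fell by edgeR (median 0.16; 0.25 without OL library C and 0.25 to 0.26 without any 1 OPC library). Mx2, an antiviral GTPase gene, rose from 0.728 ± 0.143 to 5.801 ± 0.435 CPM, the class I gene H2-D1 from 7.42 ± 1.55 to 13.2 ± 1.67 CPM and Stat2 from 18.4 ± 1.54 to 30.1 ± 1.36 CPM. Irf1 fell from 7.69 ± 1.43 to 2.86 ± 0.142 CPM, Ifit2 from 31.9 ± 0.122 to 20.1 ± 1.83 CPM and the peptide transporter gene Tap1 from 11.6 ± 0.08296 to 7.31 ± 0.977 CPM.

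Genes of the cell surface and its surroundings changed with large sizes in both directions. Of 29 matrix genes 13 rose and 7 fell by edgeR (median log2 0.078, of the other sign under 6 alternatives; 4 fell without OL library B or without OL library C). Without single libraries that median ran from -0.061 (OL library B) to 0.049 (OL library C). Col11a2, a fibrillar collagen gene, read 0, 0.189 and 0.574 CPM in OPCs and 15.6, 20.6 and 21.5 CPM in OLs, and Thbs1, which encodes thrombospondin, rose from 1.65 ± 0.331 to 9.19 ± 1.14 CPM. Fbln2, a fibulin gene, fell from 179 ± 5.78 to 20.7 ± 0.493 CPM. The laminin gene Lamb1 fell, with uneven OPC libraries at 1.14, 4.21 and 12.3 CPM and OL libraries at 0.237, 0 and 0.366 CPM (log2 -4.85, SE 1.09). With a transcript length offset its log2 change was -0.84 and did not pass the test (edgeR adjusted p = 0.674). Of 33 axon guidance genes 15 rose and 6 fell by edgeR (median 0.46). The receptor gene Epha3 rose from 2.18 ± 0.264 to 26.03 ± 1.42 CPM and Epha2 fell from 5.03 ± 0.766 to 1.04 ± 0.514 CPM. The semaphorin genes Sema3e and Sema4d rose from 0.371 ± 0.334 to 5.98 ± 0.519 CPM and from 0.833 ± 0.295 to 6.33 ± 2.44 CPM. The repellent gene Slit1 and the netrin receptor gene Unc5b fell from 30.01 ± 5.24 to 16.7 ± 0.678 CPM and from 14.8 ± 0.506 to 6.86 ± 0.309 CPM.

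Ion channel genes mostly rose, with 19 of 30 higher and 3 lower by edgeR (median log2 0.97). The potassium channel gene Kcnk10 rose from 2.56 ± 0.437 to 20.1 ± 0.703 CPM and the sodium channel gene Scn3a from 3.26 ± 0.699 to 17.7 ± 0.736 CPM. Kcnd3 fell from 349.5 ± 38.1 to 243 ± 5.54 CPM, while Kcnd2, a close relative of Kcnd3, rose from 107 ± 7.53 to 353 ± 13.4 CPM. Of 19 glutamate and GABA receptor genes 12 rose and 3 fell by edgeR (median 0.91; 0.49 without OL library C and 0.57 without OPC library B). The kainate receptor gene Grik3 read 60.4, 76.3 and 86.7 CPM in OPCs and 302, 302 and 295 CPM in OLs. Gabbr2, of the GABA-B receptor, rose from 31.9 ± 3.86 to 174 ± 10.1 CPM and Gabrb2, of the GABA-A receptor, from 1.01 ± 0.201 to 6.65 ± 0.662 CPM. Grm5, a metabotropic glutamate receptor gene, fell by 0.35 on the log2 scale. Grin2c was listed at 0 in all 3 OL libraries and is at least 15.6-fold lower there against a floor of 3 counts.

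The cytoskeleton list split by isotype. Of 37 genes of process outgrowth 19 rose and 12 fell by edgeR (median log2 0.34). Dpysl3, a regulator of microtubules in growing processes, rose from 92.2 ± 9.54 to 947 ± 20.7 CPM. Cfl1, which encodes the actin-severing protein cofilin, fell by 0.41 on the log2 scale. Within the tubulins, Tubb4a read 8.35, 9.93 and 7.53 CPM in OPCs and 173, 187 and 177 CPM in OLs (log2 4.37, edgeR adjusted p = 1.4e-07). Tubb6 went the other way, with 83.8, 74.6 and 73.2 CPM in OPCs and 9.23, 12.7 and 12.4 CPM in OLs (log2 -2.76, edgeR adjusted p = 2.03e-06). Tubb3 rose by 1.42 and Tuba4a by 4.22, and Tubb4b, Tuba1b and Tuba1c fell by 1.196, 1.97 and 2.16, on the log2 scale. Exons of Tuba4a overlap a gene on the other strand over 37.26% of their bases, and those of Tuba1a and Tuba1b overlap 1 gene model on the same strand over 26.23% and 22.72%; close copies can also share reads.

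Per transcript length, the sum over 11 tubulin genes stayed within 5542 to 5892 TPM in OPC libraries and 6396 to 6501 TPM in OL libraries. Tuba1a alone stood at 1879 TPM in OPCs and 3796 TPM in OLs, and Tuba1b at 1189 and 347 TPM. Tubb4a made up 0.162% to 0.207% of the beta tubulin TPM in OPC libraries and 4.37% to 4.57% in OL libraries. The share of Tubb6 went from between 2.05% and 2.21% to between 0.308% and 0.406%. The composition of the tubulin pool thus changed more than its sum on this scale.

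**Figure D4:**
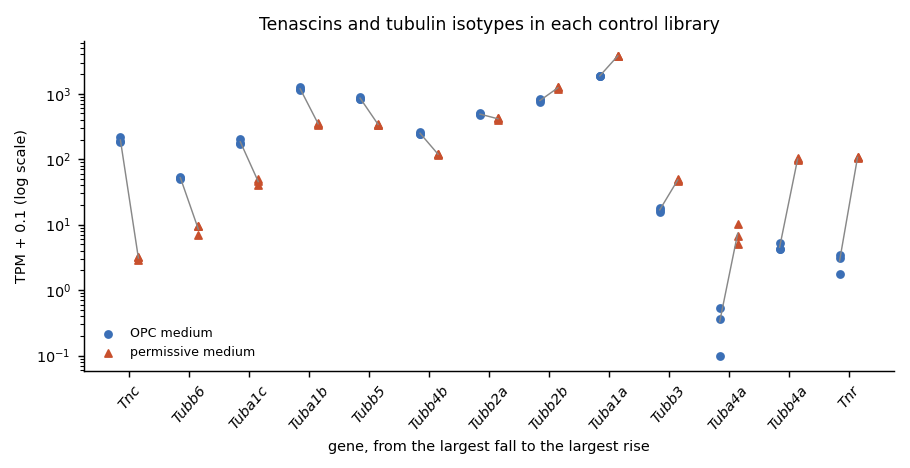
TPM plus 0.1 on a log axis for Tnc, Tnr and 11 tubulin genes, ordered from the largest fall to the largest rise; each point is a control library (blue circles, OPC medium; red triangles, permissive medium) and grey lines join the stage means. Tnc and Tnr stand at the ends, at 196 and 2.69 TPM in OPCs and 2.997 and 107 TPM in OLs.

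Regulators of chromatin and RNA also changed member by member. Of 34 chromatin regulators 8 rose and 12 fell by edgeR (median log2 -0.22; 0.016 without OPC library C, -0.44 without OL library B and -0.13 without OL library C). Hmgb2, a nonhistone chromosomal protein gene, fell from 391 ± 96.3 to 63.8 ± 2.44 CPM, Dnmt1, the maintenance DNA methyltransferase, from 208 ± 12.6 to 57.6 ± 13.3 CPM, and the histone gene H2afx from 374 ± 27.5 to 105 ± 4.95 CPM. Hdac9 and Tet2, which encode a histone deacetylase and an enzyme that oxidises methylcytosine, rose from 10.9 ± 0.294 to 23.1 ± 2.05 CPM and from 59.2 ± 12.2 to 109 ± 3.79 CPM. Of 28 RNA processing genes 9 rose and 12 fell by edgeR (median -0.13). The splicing repressor gene Ptbp1 read 385, 399.7 and 404 CPM in OPCs and 167, 159 and 164 CPM in OLs (log2 -1.28, edgeR adjusted p = 7.35e-07; 20.74% of its exon bases overlap genes on the other strand). The RNA-binding protein genes Elavl3, Celf4 and Nova1 rose from 8.79 ± 2.32 to 84.99 ± 7.37 CPM, from 2.86 ± 0.193 to 9.73 ± 0.549 CPM and from 227 ± 24.5 to 381 ± 12.9 CPM. The splicing factor genes Srsf3 and Srsf7 fell from 547 ± 94.9 to 269 ± 5.94 CPM and from 158 ± 23.9 to 78.1 ± 2.95 CPM.

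The cultures were not sorted, and markers of other cell types moved with the medium. Of 16 astrocyte markers tested 12 rose and 2 fell by edgeR, at a median log2 of 1.41, and their summed level went from 3509 to 3668 CPM in OPC libraries to 8362 to 8708 CPM in OL libraries. Apoe, an apolipoprotein gene that astrocytes express strongly (chr7:19696109-19699188), read 47.7, 60.7 and 55.2 CPM in OPCs and 2086, 2309 and 2251 CPM in OLs (log2 5.34, SE 0.10, edgeR adjusted p = 7.8e-08). S100b, which oligodendrocyte lineage cells also express, rose from 34.3 ± 3.08 to 208 ± 2.69 CPM. The defining gene Gfap stood at 0.571, 1.07 and 0.574 CPM in OPCs and 3.31, 2.31 and 2.27 CPM in OLs, and the water channel gene Aqp4 at 0.143, 0 and 6.53 CPM and 19.6, 21.01 and 22.9 CPM. Gfap thus remained near the detection limit in both media, while Aqp4 was uneven in OPCs and rose in OLs. The call of Aqp4 was lost on leaving out OL library A, B or C, or OPC library A or B. Vim and Cd44, the markers that fell, went from 1623 ± 41.6 to 821 ± 13.7 CPM and from 99.4 ± 3.37 to 40.9 ± 3.08 CPM. The part of astrocytes in the results above was not tested.

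Of 15 neuron markers tested 7 rose and 1 fell by edgeR (median log2 0.48), and their sum went from 1468 to 1786 CPM to 2626 to 2742 CPM. Dcx rose from 184 ± 28.95 to 405 ± 14.6 CPM and Gap43 fell from 125 ± 13.5 to 55.6 ± 1.103 CPM. The synaptic genes Snap25 and Syt1 did not pass the test, at 2.95 ± 0.122 and 0.908 ± 0.795 CPM in OLs. Of 12 microglia markers 2 passed the filter and both rose by edgeR, among them Ptprc, from 0.236 ± 0.154 to 0.899 ± 0.167 CPM. Ptprc passed only through the OL libraries and so had to be higher there. Without any 1 library other than OPC library A, 1 microglia marker rose. The defining genes Cx3cr1 and P2ry12 stood at 0.189 CPM or less in every library. Of 6 fibroblast and pericyte markers tested 1 rose, Thy1 (6.36 ± 1.54 to 32.3 ± 0.713 CPM), and 2 fell, Cspg4 and the smooth muscle actin gene Acta2 (8.32 ± 1.33 to 0.529 ± 0.211 CPM); 4 fell without OPC library A. Of 5 Schwann cell markers tested, Sox10 rose and Pmp22 and Pou3f1 fell (54.96 ± 2.795 to 17.9 ± 1.4998 CPM and 170.5 ± 9.704 to 28.3 ± 0.984 CPM), with a median of -0.17 that ran from -0.38 without OPC library C to 0.054 without OL library C. Of 5 pluripotency markers tested 2 fell, Esrrb and Lin28b (14.1 ± 1.75 to 7.38 ± 2.43 CPM and 24.04 ± 1.17 to 17.4 ± 1.002 CPM), and Pou5f1 was listed at 0 in all 6 libraries. The part of these cell types in the results was not tested.

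Among the 15 largest rises and falls that the naming rule returned, several genes belong to none of the lists. Rassf10 read 0, 0.126 and 0.287 CPM in OPCs and 20.1, 20.6 and 18.1 CPM in OLs, and Tmem163, a zinc transporter gene, read 0.499, 0.0629 and 0.143 and 15.5, 17.9 and 20.1 CPM. Tmem88b, Abhd3 and Chst1, a sulfotransferase gene, rose from 1.79 ± 0.627 to 84.8 ± 5.399 CPM, from 2.85 ± 0.479 to 114 ± 4.08 CPM and from 0.633 ± 0.176 to 30.7 ± 0.766 CPM. Slc25a34, of the mitochondrial carrier family, and Rasgef1b rose from 0.385 ± 0.152 to 15.2 ± 2.597 CPM and from 0.311 ± 0.538 to 11.1 ± 1.64 CPM. None of these genes exceeded 3.37 CPM, the level of Abhd3 in library C, in an OPC library.

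Among the 15 genes named for the largest falls, Lgals1, which encodes the sugar-binding protein galectin-1, had the highest starting level after Tnc. It read 827, 737 and 639 CPM in OPCs and 66.7, 71.8 and 63.9 CPM in OLs (log2 -3.44, SE 0.10, edgeR adjusted p = 3.48e-07). Tgfbr2, the TGF-beta receptor gene, fell from 12.6 ± 1.57 to 0.587 ± 0.314 CPM. The potassium channel gene Kcng1 and the muscarinic receptor gene Chrm3 fell from 21.4 ± 0.106 to 1.12 ± 0.1703 CPM and from 13.8 ± 1.69 to 0.955 ± 0.345 CPM. Ccdc80 fell from 16.1 ± 0.822 to 1.31 ± 0.717 CPM and Gcnt4, a glycosyltransferase gene, from 10.2 ± 1.101 to 0.946 ± 0.123 CPM. Genes of division were also in this set, the exonuclease gene Exo1 (16.4 ± 1.49 to 1.39 ± 0.273 CPM) and the centriole kinase gene Plk4 (10.3 ± 1.998 to 0.969 ± 0.728 CPM). Dcpp1 and Dcpp2 fell from 14.8 ± 3.27 to 1.197 ± 0.656 CPM and from 20.8 ± 3.59 to 1.72 ± 0.529 CPM, but they are near-identical copies and how their reads were divided is uncertain. The falls of Shmt1, a folate enzyme gene (25.6, 18.6 and 9.97 CPM in OPCs, 0.947, 1.54 and 0.2195 CPM in OLs), and of Hmcn1 (11.6, 11.8 and 19.9 and 0.237, 0 and 3.95 CPM) came with uneven libraries.

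The most abundant RNAs were shared by both stages to a large extent. The 10 genes with the highest TPM made up 15.07% of the TPM in OPCs and 18.21% in OLs. Ckb, the brain creatine kinase gene, was first in both, at 8492 and 8228 TPM. Atp5b, Tpt1, Olig1, Gapdh and Tuba1a were also in both sets. Gnas, Cfl1 and Ppia were in the OPC set, and Cst3, Apoe, Mt3 and Scd2 in the OL set. Cst3, which encodes the protease inhibitor cystatin C, rose from 536 ± 59.02 to 2862 ± 95.98 CPM, and Mt3, a metallothionein gene, from 238 ± 5.91 to 729 ± 63.8 CPM. For 1096 genes the 95% interval of the log2 change lay within 0.3 of 0. The most abundant of these included Ywhae, Ubb, Calr, Agrn, Adgrg1 and Vcp, none of which passed the test, at log2 changes between -0.048 and 0.080. Gapdh, Tpt1 and Fyn were also within that limit, and changed by -0.19, -0.13 and 0.13 on the log2 scale.

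The sorted cells, which share no library with the cultures, were tested with limma on log2(TPM + 1), a scale on which changes at low values look smaller than they are. Of 11883 genes tested there, 3154 rose (26.5%) and 4095 fell (34.5%) from sorted OPCs to sorted OLs. Of the 11389 genes tested in both sets, 1630 rose in both and 2310 fell in both. Of the genes that rose in the cultures and were tested in both, 53.3% also rose in the sorted cells, and 54.6% of the sorted rises also rose in the cultures. For falls the shares were 70.0% and 57.4%. Of the mitosis list 37 of 37 fell in the sorted cells, and of the myelin list 14 of 15 rose. The progenitor list had 10 of 19 lower and 6 higher in the sorted cells, against 5 lower and 14 higher of 21 in the cultures.

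Calls in opposite directions were made for 620 genes (5.44% of those tested in both), 367 higher in the cultures and lower in the sorted cells, and 253 the reverse; whether the sets differ was not tested. Pdgfra led the first kind, with the rise described above in the cultures and sorted OPCs at 11.4 ± 3.27 TPM against sorted OLs at 0.906 ± 0.666 TPM. Kcnd2 rose in the cultures, and stood at 20.05 ± 2.69 and 5.301 ± 0.713 TPM in sorted OPCs and OLs. Mlc1, Grk3, a receptor kinase gene, and C1qtnf5 rose from 26.6 ± 6.22 to 64.8 ± 3.100000000 CPM, from 64.9 ± 4.25 to 149 ± 5.5004 CPM and from 10.9 ± 0.749 to 27.5 ± 1.43 CPM in the cultures; in the sorted cells Mlc1 went from 10.8 ± 2.36 to 3.14 ± 1.08 TPM, Grk3 from 18.8 ± 2.199 to 3.68 ± 0.758 TPM and C1qtnf5 from 11.99 ± 1.64 to 4.52 ± 1.08 TPM. Exons of C1qtnf5 lie within those of Mfrp on the same strand (100.0% of bases), so its reads cannot be told from those of Mfrp. In the reverse direction, Tubb4b fell in the cultures and stood at 281 ± 18.1 and 610.4 ± 17.9 TPM in the sorted cells. The formin gene Diaph3 fell from 39.8 ± 2.72 to 10.6 ± 1.56 CPM and stood at 13.98 ± 2.15 and 40.7 ± 2.95 TPM in the sorted cells. On log2(TPM + 1), the scale used for the sorted cells, Diaph3 changed by -0.59 in the cultures. It was not called there (limma adjusted p = 0.0872). Gadd45b and Acy3 fell from 10.6 ± 1.005 to 4.73 ± 0.492 CPM and from 18.01 ± 1.41 to 8.12 ± 2.91 CPM, and in the sorted cells went from 6.79 ± 1.14 to 49.7 ± 12.7 TPM and from 8.503 ± 1.999 to 20.04 ± 2.53 TPM. Unc5b was at 2.68 ± 0.723 and 16.6 ± 2.27 TPM in sorted OPCs and OLs, against its fall in the cultures.

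**Figure D5:**
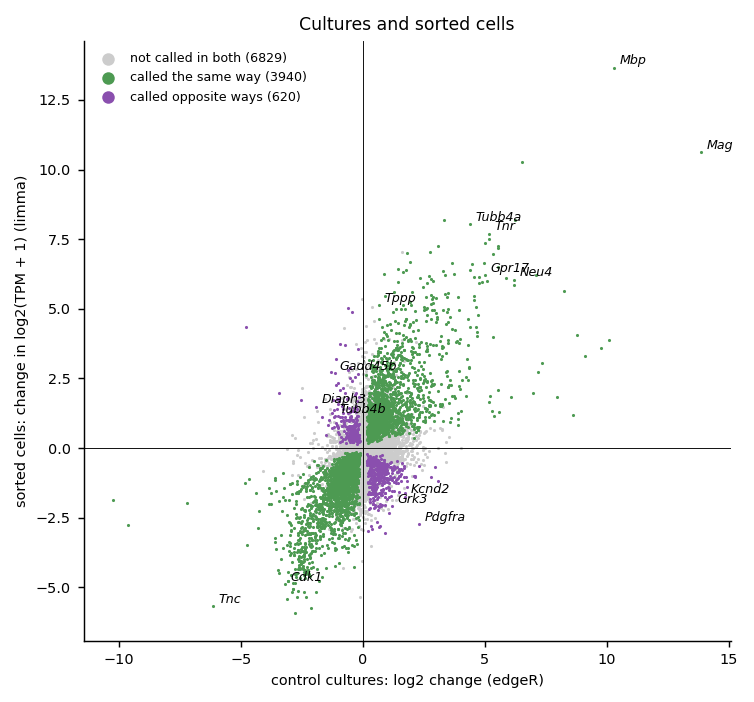
Log2 change in the control cultures by edgeR (horizontal axis) against the change in log2(TPM + 1) in the sorted cells by limma (vertical axis) for the 11389 genes tested in both. Green points were called the same way in both sets (3940), purple points in opposite ways (620) and grey points were not called in both; Mbp and Mag lie at the upper right, Tnc and Cdk1 at the lower left and Pdgfra at the lower right.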

How the data were processed

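Poly(A) RNA had been sequenced with a kit that selects poly(A) and does not mark strand, per the labels' protocols. Per the submitters' processing notes, Salmon 0.14.1, DESeq2 (version not given in the sources used here) and the build mm10 were used. The authors deposited estimated counts by gene symbol, with a table for each stage, and TPM tables, from which the TPM values of the sorted cells come; the TPM of a control library summed to between 776154 and 791137. The sorted table holds 26 names that are dates and match no gene.

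Estimated counts were rounded to whole numbers and fitted over the 6 control libraries alone with edgeR 4.0.16 in R 4.3.3 (filterByExpr with a minimum count of 10 and a minimum total of 15, TMM, quasi-likelihood F test, two-sided, Benjamini-Hochberg over all genes, threshold 0.05). Depth is given with the results. For the sorted cells limma 3.58.1 was run on log2(TPM + 1), keeping a gene if its TPM reached 1 in 3 or more libraries; the depth behind those TPM is unknown. Alternatives were other scalings and filters, DESeq2 1.42.0, TPM with limma, a length offset, all 17 libraries of the Sox6 experiment, a test against a 1.5-fold change, a block by column letter and leaving out each library.

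The 39 gene lists (983 entries, 937 genes), like the comparison itself, were chosen with earlier results of these data known, and lists have no test of their own. Named genes were the 15 largest rises and falls with at least 10 CPM in the higher stage and no overlap between stages (predicted, mitochondrial and ribosomal protein genes left out), Mbp, Gpr17, Neu4 and Cdk1, fixed lineage markers, up to 3 rises and 3 falls per list with at least 5 CPM, the 10 highest genes by TPM, 10 abundant genes with little change, and 5 genes each way called oppositely in sorted cells. Some genes that this rule names are not reported here. Mki67, Mcm5, Mcm6, Gfap, Grin2c, Mal, Pgk1, Ptprc, Cx3cr1, P2ry12 and Pou5f1 were named after their values were seen. Etv4, Klf9, Snap25 and Syt1 are list members named to say that they did not pass the test. Gene positions are from GENCODE M21 (GRCm38).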

Additional observations from a re-analysis of the deposited data

Results flagged for a closer look

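The control cultures and the sorted cells were called in opposite directions for 620 genes, 5.44% of the 11389 tested in both. For 615 of these the libraries of the stages did not overlap in either set, so that condition adds little to the calls. All OL libraries of such a gene moved one way in the cultures and the other way in the sorted cells, which is what drew attention to them; the difference between the sets was not tested. Pdgfra, Kcnd2, Tubb4b and Diaph3 are among the examples given with the results. The call of Diaph3 in the cultures was lost with limma on TPM. The sets differ in sorting, in medium and in unit, and these cannot be told apart here.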

How the results depend on the processing

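No gene that edgeR called in the cultures was called in the opposite direction under any of the alternatives run. The number called was 6908. It was 2671 (1468 higher, 1203 lower) when tested against a 1.5-fold change, a stricter question on the same fit. With limma on TPM the falls numbered 2274 (log2(TPM + 1)) and 2233 (log2(TPM + 0.1)); the cause was not tested, but on these scales the median of all genes lay at 0.12 and 0.13 in place of 0.02, and 59.3% and 59.1% of calls were rises in place of 49.9%. Without single libraries the count ran from 5998 to 7055. Column letters did not pair the libraries: the correlation of deviations between same-letter libraries was -0.0335 to 0.0119 in the cultures and 0.011 to 0.0519 in the sorted cells. With the letter as a replicate block the counts were 6291 (3138 higher, 3153 lower) in the cultures and 7084 in the sorted cells. Of 219 named genes called, 217 kept their call with DESeq2, 205 with all 17 libraries in the fit and 167 against a 1.5-fold change, and none reversed. List medians near 0 were the ones that changed sign, as given beside them. With a transcript length offset 208 of the 219 kept their call; those that lost it were Per1, Thrb, Cers5, Sdhc, Sel1l, Sdf2l1, Edem1, Mdm2, Lamb1, Epha2 and Atp5b. Leaving out at least 1 single library ended the call of Aqp4, Cers5, Ckb, Fyn, Hmcn1, Il17rd, Lig1, Mdm2, Prkar1a, Sdf2l1, Sdhc, Sel1l and Tpt1 among the genes named. For genes listed at 0 in a stage, depth limits the fold to a lower bound.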
